A study of Mus musculus with 18 samples.

Results

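The genes described here are 8 mouse genes of the acute phase response and of inflammatory mediator synthesis, *Saa1*, *Saa2*, *Saa3*, *Lcn2*, *Hp*, *Nos2*, *Ptgs2* and *Ptges*, out of 38924 genes in the count table. They were listed by symbol and matched to their Ensembl rows. The list was chosen by results in these same libraries, in which *Saa3* and *Nos2* were among the largest rises after transplantation and *Lcn2* differed between kidney and tail fibroblasts. The members' transplant responses, and the organ comparisons of *Saa3*, *Nos2* and *Lcn2*, are therefore given as levels and fold changes with no p-value. The same holds for differences between organs in the transplant responses. Counts past the threshold in all of these only describe the choice. Tests are kept for the organ comparisons of *Hp*, *Ptgs2* and *Ptges*.

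The study asked whether fibroblasts keep an organ identity when moved to another site. Male Rosa mT/mG mice on a C57BL/6 background, aged 10 weeks, gave fibroblasts of heart (HF), kidney (KF) and tail (TF). Their cells carry a red fluorescent membrane protein, and all were cultured for 10 days. Between 400000 and 500000 cells on gelatin foam were then placed under the kidney capsule of syngeneic C57BL/6J mice of 10 to 11 weeks and recovered after 3 days by sorting for CD45- TdTomato+ cells (HFs, KFs and TFs), while leftover cells were replated at 50000 per well for 3 more days as cultured controls, named HFc, KFc and TFc. Bulk RNA of 3 samples was sequenced in every group, 6 groups in all. The culture groups differ from the transplanted groups in the surgery, the host, the foam and the cell recovery together, and these cannot be told apart.

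Acute phase proteins are plasma proteins whose output rises with infection or injury, classically from the liver under interleukin 1 and interleukin 6. Serum amyloid A proteins bind lipoproteins and attract leukocytes, *Lcn2* encodes a lipocalin that binds bacterial iron carriers, and *Hp* encodes haptoglobin, which binds free haemoglobin. Inducible nitric oxide synthase (*Nos2*) makes nitric oxide from arginine, and cyclooxygenase 2 (*Ptgs2*) with the microsomal synthase of *Ptges* makes prostaglandin E2.

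Total counts ranged from 17927838 to 32245168 per library, so 3 counts, taken as the floor, correspond to 0.093 to 0.167 counts per 1000000 (CPM). At least 8 of 9 fibroblast markers were above this floor in every library. The library labelled KFs replicate 3 stood apart from the others. It had 1720 CPM of *Xist*, against at most 0.396 in the other 17 libraries, and 0.83 CPM summed over Y-linked genes, against 173.5 to 221.5, which goes against donors labelled male. Summed fibroblast markers were 19720 CPM in this library and reached 94970 CPM in the same group. Summed epithelial markers were 118.3 CPM against 7.84 and 3.78 CPM in the other KFs libraries, and summed leukocyte and macrophage markers were 38.6 CPM against 154 and 123.5 CPM. It was kept, and the fold changes, counts and medians of kidney groups are also given without it.

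Promoter sequences are shown for 3 members with different responses: *Saa3* and *Lcn2*, which were near 0 in cultured kidney fibroblasts and higher in every transplanted library, and *Ptgs2*, which was already high in cultured kidney and tail fibroblasts. The reference held a promoter for 6 of the 8 members, without *Hp* and *Nos2*. Each line gives the 250 bases before the RefSeq start site (GRCm38.p6), 5′ to 3′ on the gene's strand, at chr7:46715677-46715926 (minus strand) for *Saa3*, chr2:32387740-32387989 (minus strand) for *Lcn2* and chr1:150099781-150100030 (plus strand) for *Ptgs2*. Capitals mark matches on either strand to the pattern TTNNGNAA, which is part of the sites bound by C/EBP factors.
Saa3: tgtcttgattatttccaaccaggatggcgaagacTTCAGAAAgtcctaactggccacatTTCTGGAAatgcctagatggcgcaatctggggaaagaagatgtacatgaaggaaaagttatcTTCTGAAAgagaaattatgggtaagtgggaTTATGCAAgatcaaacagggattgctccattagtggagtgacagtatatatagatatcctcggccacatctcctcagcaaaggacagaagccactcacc
Lcn2: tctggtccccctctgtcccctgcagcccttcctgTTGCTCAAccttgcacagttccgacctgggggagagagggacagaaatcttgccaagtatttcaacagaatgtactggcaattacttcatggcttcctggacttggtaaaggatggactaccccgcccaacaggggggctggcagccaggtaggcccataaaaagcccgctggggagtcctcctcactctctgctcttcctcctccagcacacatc
Ptgs2: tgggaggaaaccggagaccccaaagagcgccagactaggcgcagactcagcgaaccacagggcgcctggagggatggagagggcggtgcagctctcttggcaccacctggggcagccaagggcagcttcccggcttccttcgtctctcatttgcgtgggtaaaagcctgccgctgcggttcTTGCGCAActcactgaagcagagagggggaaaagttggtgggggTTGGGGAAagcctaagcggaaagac
*Saa3* held 4 matches, the nearest from 99 to 92 bases before the start, *Ptgs2* held 2 from 69 to 62 and from 25 to 18 bases before it, and *Lcn2* held 1 from 216 to 209 bases before it. *Saa1* also held 2 matches, and *Saa2* and *Ptges* 1 each. The pattern occurred in 36.85% of all 32851 promoters of this length, so its presence in a single promoter is common. The NF-kB consensus, TTCNNNGAA of STAT factors, TGANTCA of AP-1 and TATAAA had no match in these 6 windows and occurred in 7.25%, 7.02%, 6.75% and 12.37% of all promoters.

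Of the secreted proteins, serum amyloid A3 was near 0 in culture and was highest in transplanted tail fibroblasts. *Saa3* (ENSMUSG00000040026, chromosome 7 from 46711998 to 46715700, GRCm38) had no count in any HFc library, 7, 2 and 0 counts in KFc and 0, 8 and 1 counts in TFc. After transplantation it had 44.9, 158.7 and 288.3 CPM in HFs, 165.2, 79.8 and 1.76 CPM in KFs and 939.3, 530.0 and 536.4 CPM in TFs. No transplanted library overlapped the cultured libraries of its organ, and the TFs libraries were all above the HFs and KFs libraries. The level in HFs was at least 1370-fold higher than in HFc, or 853-fold without HFs replicate 3. The log2 fold change was 9.54 ± 1.64 (SE) in kidney, or 10.08 without the library labelled KFs replicate 3, and 12.50 ± 1.70 in tail fibroblasts. With so few cultured counts, single libraries moved these values, to 11.04 without KFc replicate 1, 8.94 without KFc replicate 3 and 8.54 without KFs replicate 1 in kidney, and to 11.77 without TFc replicate 1 and 14.83 without TFc replicate 2 in tail. In bulk RNA, a change in the number of expressing cells and a change in RNA per cell cannot be told apart.

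**Figure D1:**
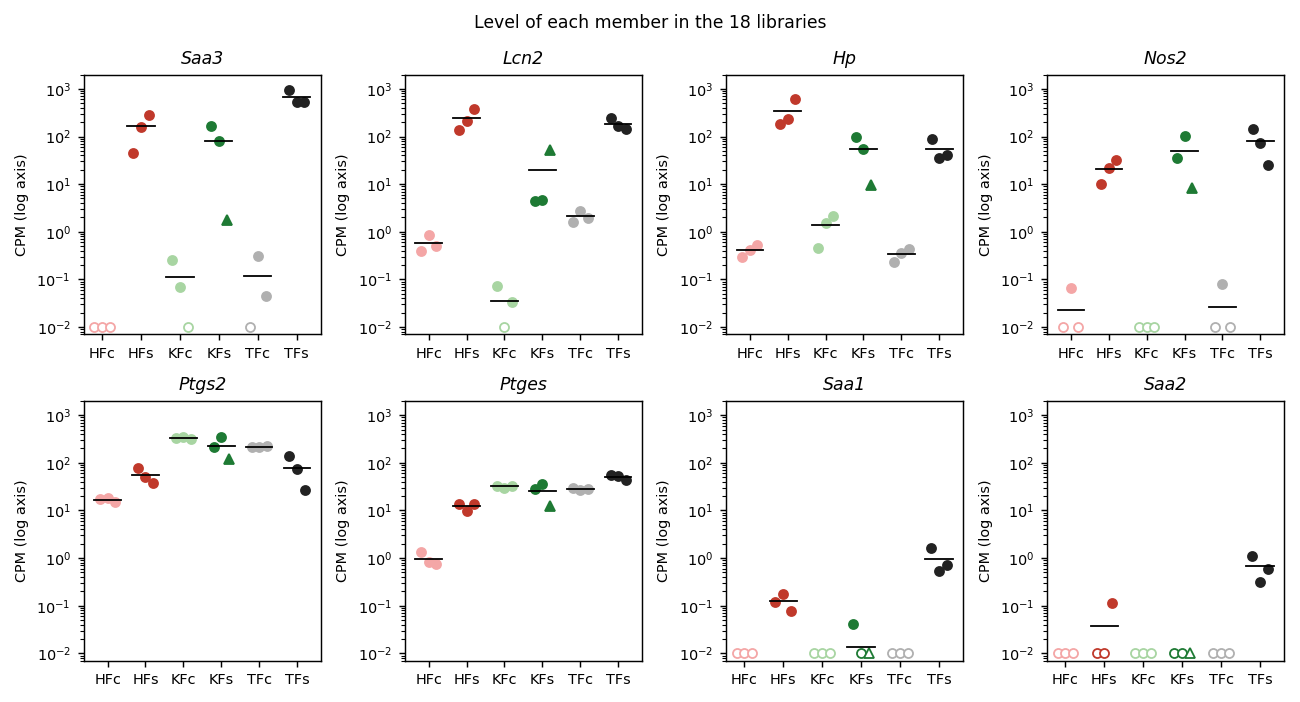
CPM of the 8 members on a log axis in the 18 libraries, by group (HF heart, KF kidney, TF tail, c cultured, s transplanted). Each point is 1 library, bars are means of 3 libraries, open points at the bottom are libraries with 0 counts, and the triangle is the library labelled KFs replicate 3; *Saa3* is at most 0.314 CPM in culture and at least 1.76 CPM after transplantation.

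The liver-type serum amyloid genes were far lower than *Saa3*. *Saa1* (ENSMUSG00000074115) and *Saa2* (ENSMUSG00000057465), neighbours on chromosome 7, had no count in the 9 cultured libraries. In TFs *Saa1* had 30, 12 and 17 counts and *Saa2* had 21, 7 and 14 counts, at least 8.49-fold (5.61-fold without TFs replicate 1) and 6.02-fold higher than in TFc. *Saa1* had 2, 4 and 2 counts in HFs and 1, 0 and 0 counts in KFs, and *Saa2* reached 3 counts in 1 HFs library and none in KFs. Counts of this size sit at or near the floor outside TFs. *Saa2* did not pass the filter on low counts, so 7 of the 8 members were tested. *Saa1* passed it only through the TFs libraries, where it was highest, so its differences from TFs are given as description. Protein-coding transcripts of *Saa1* and *Saa2* share 25 windows of 75 bases, 4.67% and 3.92% of their own windows, so reads could be split between them, while *Saa3* shares none with either.

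*Lcn2* (ENSMUSG00000026822, chromosome 2 from 32384633 to 32388252) was low in culture but detected in heart and tail fibroblasts, with 0.401, 0.846 and 0.491 CPM in HFc and 1.63, 2.79 and 1.93 CPM in TFc. In KFc it had 0.0746, 0 and 0.0332 CPM, all at or under 3 counts. Transplanted cells had 135.2, 216.0 and 385.3 CPM in HFs, 4.49, 4.62 and 51.5 CPM in KFs and 241.2, 168.4 and 144.2 CPM in TFs. The KFs libraries were thus the lowest of the transplanted libraries, and the library labelled KFs replicate 3 was 11.3-fold above the mean of the other KFs libraries. The log2 fold change was 8.69 ± 0.99 in heart and 6.46 ± 0.86 in tail fibroblasts, and the level in kidney was at least 192-fold higher, or at least 43.2-fold without that library. In KFs relative to TFs the log2 difference was -3.20 ± 0.71, and -5.34 ± 0.42 without that library.

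Haptoglobin was higher in transplanted heart fibroblasts than in those of the other organs. *Hp* (ENSMUSG00000031722) had 0.292, 0.406 and 0.541 CPM in HFc, 0.448, 1.54 and 2.13 CPM in KFc and 0.237, 0.353 and 0.439 CPM in TFc. It reached 183.8, 231.6 and 617.6 CPM in HFs, 99.2, 55.0 and 9.50 CPM in KFs and 90.1, 36.0 and 41.7 CPM in TFs. All HFs libraries were above all KFs and TFs libraries, which overlapped each other. The log2 fold change was 9.72 ± 0.98 in heart, 5.29 ± 0.80 in kidney (5.74 without the library labelled KFs replicate 3) and 7.37 ± 0.96 in tail fibroblasts. It was 9.04 in heart without HFs replicate 3 and 4.54 in kidney without KFs replicate 1.

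Of the enzymes, *Nos2* (ENSMUSG00000020826, chromosome 11 from 78920787 to 78960254) had 0 counts in 7 of the 9 cultured libraries and 2 counts in the other two. Its levels after transplantation were 10.2, 21.6 and 31.9 CPM in HFs, 36.3, 100.9 and 8.34 CPM in KFs and 145.5, 74.7 and 24.8 CPM in TFs. These are at least 178-fold, 460-fold and 724-fold higher than in the cultured cells of heart, kidney and tail, and 651-fold for kidney without the library labelled KFs replicate 3. The bounds were 212-fold without KFs replicate 2 and 441-fold without TFs replicate 1. The 3 transplanted groups overlapped in part, and TFs libraries ranged from 24.8 to 145.5 CPM.

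The prostaglandin enzymes differed from the other members in that they were expressed in culture. *Ptgs2* (ENSMUSG00000032487) had 17.3, 18.1 and 15.3 CPM in HFc, 329.4, 346.8 and 316.0 CPM in KFc and 212.2, 212.2 and 224.9 CPM in TFc. After transplantation it had 76.8, 51.0 and 37.9 CPM in HFs, 215.9, 346.8 and 122.5 CPM in KFs and 135.8, 72.9 and 26.4 CPM in TFs. Every HFs library was above every HFc library, every TFs library was below every TFc library, and the kidney groups overlapped. The log2 fold change was 1.70 ± 0.45 in heart, -0.53 ± 0.43 in kidney (-0.28 without the library labelled KFs replicate 3) and -1.47 ± 0.44 in tail fibroblasts (-2.13 without TFs replicate 1).

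*Ptges* (ENSMUSG00000050737), which converts the product of cyclooxygenase to prostaglandin E2, followed a partly different course. It had 1.31, 0.846 and 0.737 CPM in HFc, 32.9, 29.7 and 33.0 CPM in KFc and 29.8, 26.6 and 28.2 CPM in TFc. It then had 13.4, 9.65 and 13.6 CPM in HFs, 28.8, 36.7 and 12.6 CPM in KFs and 56.4, 53.8 and 43.1 CPM in TFs. HFs lay above HFc and TFs above TFc in every library, while the kidney groups overlapped. The log2 fold change was 3.64 ± 0.34 in heart, -0.29 ± 0.27 in kidney (-0.001 without the library labelled KFs replicate 3) and 0.86 ± 0.27 in tail fibroblasts. In tail fibroblasts the 2 enzymes thus had fold changes of opposite sign. A processed pseudogene, *Gm13400*, overlaps *Ptges* on the same strand, so its count may hold reads of both.

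**Figure D2:**
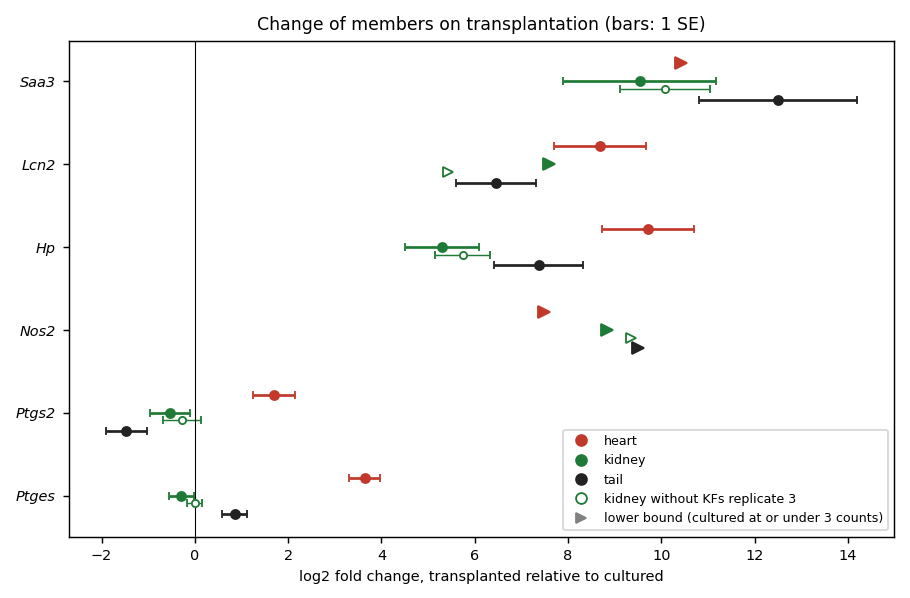
Log2 fold change of 6 members in transplanted relative to cultured fibroblasts of heart, kidney and tail, with bars of 1 SE from the fit over all libraries. Triangles are lower bounds where the cultured libraries had at most 3 counts, and open symbols leave out the library labelled KFs replicate 3; *Ptgs2* lies at 1.70 in heart and -1.47 in tail.

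A gene counted as past the threshold at an adjusted p under 0.05 (edgeR quasi-likelihood, Benjamini-Hochberg over 16577 genes) and, for transplantation, a log2 fold change above 1 or below -1. In heart, 7 of 7 tested members passed, all higher, where 27.7% of all genes tested passed in either direction. *Saa1* was 1 of them with at most 4 counts in HFs. In kidney, 4 passed, all higher (*Saa3*, *Lcn2*, *Hp* and *Nos2*), where 22.6% of all genes did, and 4 without the library labelled KFs replicate 3. In tail, 5 passed as higher and *Ptgs2* as lower, where 16.5% of all genes did, and *Ptgs2* no longer passed without TFs replicate 2 (-1.42). Since the members were chosen from these contrasts, nothing is read from those counts and shares.

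Markers of cells that a graft could hold moved with transplantation too. All 10 proximal tubule markers were above the floor in every transplanted library, and summed to 114.9 to 1150 CPM in HFs, 56.1 to 119 CPM in KFs and 119.5 to 309.8 CPM in TFs, while the cultured cells had 19.9 to 20.2 CPM (heart), 95.7 to 102.1 (kidney) and 14.0 to 16.4 (tail). Markers of the loop, distal tubule and collecting duct summed to 13.1 to 95.4 CPM in HFs, 14.8 to 26.2 CPM in KFs and 21.5 to 70.1 CPM in TFs, and to at most 0.846 CPM in any cultured library. Endothelial markers summed to 80.7 to 91.1, 46.9 to 65.5 and 64.3 to 69.0 CPM in HFs, KFs and TFs, and to at most 57.6 CPM in culture. The HFs library with the highest proximal tubule sum, replicate 2, was not the highest HFs library for any member but *Saa1*. The TFs library with the highest sum, replicate 1, was the highest TFs library for all 8 members. In KFs the library with the highest sum, replicate 1, was the highest for *Saa1*, *Saa3* and *Hp* and not for *Lcn2*, *Nos2*, *Ptgs2* and *Ptges*. Leukocyte and macrophage markers summed to 95.1 to 162.9 CPM in HFs against 98.1 to 113.1 in HFc, 38.6 to 154 in KFs against 451.1 to 485.2 in KFc, and TFs held 41.6 to 48.1 CPM against 186.3 to 215.3 in TFc. The 10 neutrophil markers summed to 13.5 to 18.6 CPM in HFs, 14.8 to 16.5 in KFs and 12.3 to 13.2 in TFs, against 5.07 to 9.29 in culture. Of this, *Cxcr2* had 11.8 to 13.6 CPM on average in transplanted and 5.57 to 7.51 in cultured groups. *Ly6g* was at 0 in all 18 libraries, and *S100a8* and *S100a9* at most 0.748 CPM on average in any group. *Camp* reached 89 counts in HFs, and *S100a9*, *Camp* and *Mpo* reached 41, 40 and 31 counts in KFs. Hepatocyte markers summed to at most 4.892, 5.97 and 1.017 CPM in HFs, KFs and TFs. The highest KFs sum was in the library labelled KFs replicate 3. In HFc, KFc and TFc these markers summed to at most 0.2031, 0.5584 and 1.609 CPM. *Alb* and *Apoa1* had no more than 4 counts in any library. *Ttr* reached 102 counts and *Ahsg* 77 counts in HFs, both with 0 in HFc. *Fgb* reached 144 counts in KFs against 4 in KFc, and *Ttr* reached 36 counts in TFc. The part of tubule and macrophage RNA in the members' levels was not tested.

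**Figure D3:**
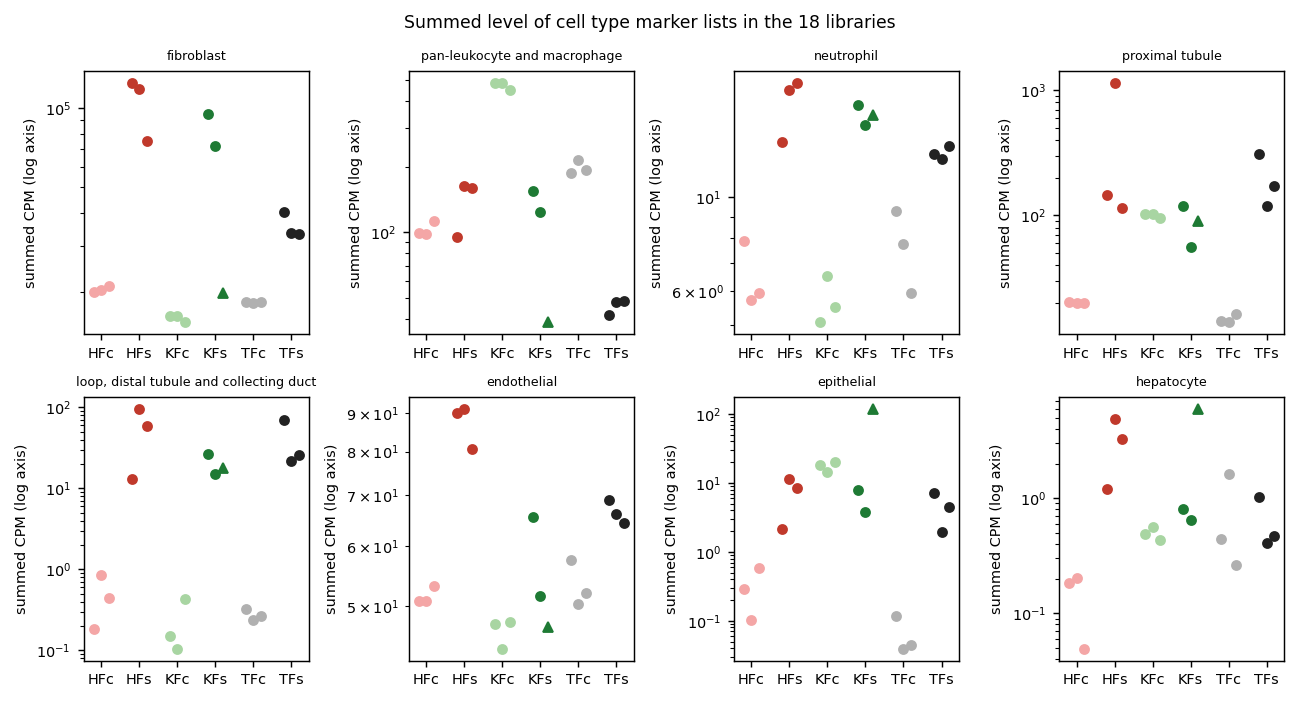
Summed CPM of 8 lists of cell type markers on a log axis in each of the 18 libraries, by group, with the library labelled KFs replicate 3 as a triangle. Proximal tubule markers reach 1150 CPM in 1 HFs library, and epithelial markers 118.3 CPM in the library labelled KFs replicate 3.

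Cultured fibroblasts of the 3 organs differed in the prostaglandin enzymes. *Ptgs2* was lower in HFc than in TFc by a log2 difference of -3.68 ± 0.48 (adjusted p = 1.62e-05) and than in KFc by -4.29 ± 0.49 (adjusted p = 8.61e-06). *Ptges* was lower in HFc by -4.85 ± 0.35 relative to TFc (adjusted p = 2.66e-08) and by -5.02 ± 0.35 relative to KFc (adjusted p = 4.71e-08). These were the 2 members past the threshold in each of the heart comparisons, where 41.9% (HFc relative to TFc) and 29.2% (HFc relative to KFc) of all genes passed. Between KFc and TFc neither passed, at 0.61 ± 0.43 for *Ptgs2* (adjusted p = 0.286) and 0.18 ± 0.27 for *Ptges* (adjusted p = 0.65). The 1 member counted past the threshold there, where 36.4% of all genes were, was *Lcn2*, at least 20.1-fold lower in KFc and used in choosing the list. *Hp*, at 1.37 ± 0.85 CPM (SD, n = 3) in KFc and 0.343 ± 0.10 in TFc, did not pass (log2 difference 2.05 ± 1.14, adjusted p = 0.178). In a fit of KFc and TFc alone *Ptgs2* (0.65, adjusted p = 6.05e-11), *Ptges* (0.21, adjusted p = 0.0261) and *Hp* (2.05, adjusted p = 0.00496) all passed. *Hp* in HFc was at 0.28 ± 1.44 relative to TFc (adjusted p = 0.905) and -1.77 ± 1.12 relative to KFc (adjusted p = 0.262). Neither passed, but the difference from KFc did in a fit of HFc and KFc alone (-1.8, adjusted p = 0.0109). *Lcn2* in HFc was at -1.82 ± 1.05 relative to TFc and 3.90 ± 2.21 relative to KFc, and neither passed. Without the library labelled KFs replicate 3 both *Lcn2* differences passed, as they did in fits of only the groups compared. The difference from KFc also passed by DESeq2. These differences share the tail or kidney values used in choosing the list, so no p-value is given.

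Among transplanted fibroblasts, heart cells had more *Hp* and less *Ptges* than tail cells. *Hp* was higher in HFs than in TFs by 2.63 ± 0.65 (adjusted p = 0.00785) and *Ptges* lower by -2.07 ± 0.28 (adjusted p = 7.03e-05). *Saa1*, with 2 to 4 counts in HFs, was counted as lower. It passed the filter on low counts only through TFs, so no p-value is given for it. With these 3 members past the threshold, 23.1% of all genes were too. The call of *Saa1* was lost with any of the 6 libraries of these groups left out. That of the others was kept, with *Hp* at 1.92 without HFs replicate 3. *Saa3* (-2.03 ± 0.94) and *Nos2* (-1.93 ± 0.74) did not pass. Both passed without the library labelled KFs replicate 3, which is in neither group but enters the shared estimate of spread. *Nos2* also passed without TFs replicate 3 (-2.37). *Lcn2* was at 0.41 ± 0.65 and did not pass. The list was chosen by *Saa3*, *Nos2* and *Lcn2*, so no p-value is given for them.

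Relative to TFs, KFs had less *Ptges* (-0.97 ± 0.27, adjusted p = 0.0137) and more *Ptgs2* (1.55 ± 0.44, adjusted p = 0.0151, with overlapping libraries). *Saa3* was lower (-3.02 ± 0.98), with no p-value given, since the list was chosen by its rise after transplantation. *Saa1*, which passed the filter on low counts only through TFs, was at least 8.50-fold lower, or 5.62-fold without TFs replicate 1. Of all genes 29.1% passed, against 5 members with *Lcn2*, *Saa1* and *Saa3* counted. *Hp* was at -0.03 ± 0.62 (adjusted p = 0.976) and *Nos2* at -0.75 ± 0.71, and neither passed. Without the library labelled KFs replicate 3 these differences were -2.44 for *Saa3*, -0.64 for *Ptges* and 1.86 for *Ptgs2*, all past the threshold, and 0.47 for *Hp* and -0.24 for *Nos2*. *Saa3* was at -4.03 without KFs replicate 1, and *Ptgs2* at 2.2 without TFs replicate 1. The call of *Saa3* was lost without KFs replicate 2 or any 1 TFs library. That of *Ptgs2* was lost without KFs replicate 2 (1.12, adjusted p = 0.0773) or TFs replicate 2 (1.50, adjusted p = 0.0559). In a fit of KFs and TFs alone, *Ptges* and *Ptgs2* had adjusted p = 0.16 and 0.177, and *Saa3* and *Lcn2* did not pass either.

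Heart and kidney differed after transplantation in both secreted proteins and enzymes. HFs had more *Hp* (2.66 ± 0.65, adjusted p = 0.0054) than KFs, and less *Ptgs2* (-2.05 ± 0.45, adjusted p = 0.00256) and *Ptges* (-1.09 ± 0.28, adjusted p = 0.0069). *Lcn2* was higher too (3.61 ± 0.72), with no p-value given, since its kidney values entered the choice of the list. The 4 members past the threshold, with *Lcn2* counted, compare with 33.2% of all genes. *Saa3* was at 1.00 ± 0.92 and *Nos2* at -1.19 ± 0.73, and neither passed. Without the library labelled KFs replicate 3 the difference was 5.77 for *Lcn2*, 2.18 for *Hp*, -2.34 for *Ptgs2* and -1.41 for *Ptges*. It was 0.44 for *Saa3* and -1.66 for *Nos2*, the last then past the threshold. *Hp* was at 1.93 without HFs replicate 3 and 3.41 without KFs replicate 1. In a fit of HFs and KFs alone, *Hp* and *Ptges* had adjusted p = 0.109 and 0.141, and *Lcn2* did not pass either.

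The response to transplantation itself, as the difference between log2 fold changes, was compared between organs. These differences are built from the transplant responses known when the list was chosen. No p-value is therefore given, and the calls only describe them. Heart exceeded tail by 3.17 ± 0.63 for *Ptgs2* and 2.78 ± 0.43 for *Ptges*, the 2 members past the threshold, where 22.8% of all genes passed. Heart exceeded kidney by 2.24 ± 0.62 for *Ptgs2*, 3.93 ± 0.44 for *Ptges* and 4.43 ± 1.25 for *Hp*, all past the threshold, where 26.2% of all genes passed. Without the library labelled KFs replicate 3 these were 1.99, 3.65 and 4.01. The *Hp* difference fell short without KFc replicate 3 (3.96), and was 3.76 without HFs replicate 3 and 5.18 without KFs replicate 1. *Ptgs2* in heart relative to tail was at 3.83 without TFs replicate 1. No member passed between kidney and tail in the main edgeR fit, where 11.1% of all genes did. There 1 member had an unadjusted p under 0.05, and DESeq2 called 1, *Ptges*, at -1.15 ± 0.38 by edgeR and -1.19 by DESeq2. *Ptges* also passed in edgeR with library size alone as the scaling (-1.14). It passed too without KFs replicate 2 (-1.50) or the library labelled KFs replicate 3 (-0.84). *Lcn2* was at 2.23 ± 1.24 between heart and tail and did not pass, and was at 2.26 and passed without the latter library. For *Saa3* and *Nos2* the interaction had standard errors of 3.96 or more on the log2 scale, since cultured libraries held few counts, so a difference in their fold changes between organs was not detectable at this depth. After the larger rise, *Ptges* was still lower in every HFs library than in every TFs library, and overlapped with KFs through the library labelled KFs replicate 3.

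**Figure D4:**
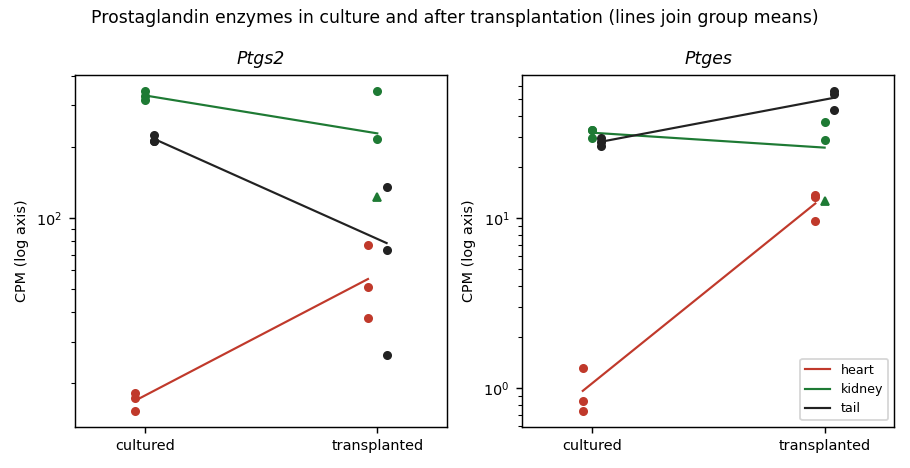
CPM of *Ptgs2* and *Ptges* on log axes in cultured and transplanted fibroblasts, 1 point per library and lines between the means of 3 libraries per group, with the library labelled KFs replicate 3 as a triangle. The heart line rises for both genes, from 16.9 to 55.2 CPM and from 0.965 to 12.2 CPM, and the tail line falls for *Ptgs2*, from 216.4 to 78.4 CPM.

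Levels between genes were compared as CPM per kilobase of exon. In HFs the highest members were *Hp* (214.4 ± 148.1, SD, n = 3), *Lcn2* (93.6 ± 48.7) and *Saa3* (62.9 ± 46.7), whose spreads overlap. In TFs the order was *Saa3* (256.6 ± 90.0), *Lcn2* (70.4 ± 19.3) and *Hp* (34.8 ± 18.5). In KFs *Ptgs2* (49.9 ± 24.6), *Hp* (33.97 ± 27.93) and *Saa3* (31.6 ± 31.4) did not differ beyond their spread, and without the library labelled KFs replicate 3 they were at 61.4, 48.0 and 47.0. The union of exons includes retained introns. With the length of the principal transcript, an alternative added after the data were seen, *Saa3* had the highest mean in all 3 groups. It was at 295.5 in HFs, 148.2 in KFs (220.7 without that library) and 1205 CPM per kilobase in TFs. In HFs *Lcn2* was at 268.3 and *Hp* at 256. *Saa3* was 164 ± 121.8 CPM in HFs and 82.2 ± 81.7 CPM in KFs (SD, n = 3), so its lead there was within its spread.

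Across the 18 libraries, the genes most like each member by Pearson's r of log2 CPM were *Lrmda* (0.98) and the metallothionein *Mt2* (0.979) for *Saa3*, *Pnrc1* (0.974) and *Gm16211* (0.965) for *Lcn2*, and *Mt1* (0.973) and *Mt2* (0.966) for *Hp*. For the enzymes they were *Pfkl* (0.985) and *H2-Q7* (0.983) for *Nos2*, *Pla2g4a* (0.956) and *Ptgs1* (0.935) for *Ptgs2*, and *Atp2b4* (0.972) and *Emilin2* (0.961) for *Ptges*. For *Saa1* they were *Fam110b* and *Gm19684*, both at 0.946. Among the members, *Saa3* and *Nos2* were most alike (0.963), *Ptgs2* and *Ptges* had 0.75, and *Ptgs2* and *Saa3* had -0.073. These values describe 18 libraries in 6 groups, and libraries of a group share their organ and state. Over the 17 libraries without the one labelled KFs replicate 3, the values for these genes ranged from 0.938 to 0.986, and those between members were 0.979, 0.753 and -0.071.

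Genes of the same pathways were summarised for the 3 transplant contrasts, with lists drawn up with earlier results of these libraries known. Of 30 other acute phase protein genes, 18 were tested. Untested *Crp*, *Apcs*, *Orm1*, *Orm2*, *Orm3*, *Saa4*, *Hamp*, *Alb* and *Fgg* averaged at most 0.274 CPM in any transplanted group, and *Fgb* reached 2.14 CPM in KFs. Of the tested genes, *Fga*, *Pzp* and *Lrg1* had at most 3 counts in every cultured library. They passed the filter on low counts only through transplanted libraries, which tilts the counts and medians upward. In heart 16 were higher, in kidney 9 (11 without the library labelled KFs replicate 3) and in tail 10, and none was lower. Of all genes tested, 18.3%, 14.7% and 11.0% were higher and 9.33%, 7.99% and 5.53% lower in heart, kidney and tail. The median log2 fold changes were 4.22, 3.51 and 3.95, or 4.08, 1.64 and 2.10 with genes near the floor set at their bounds, against 0.05, 0.09 and 0 over all genes tested, and the kidney median was 2.89 without that library. *Serpina3n*, a protease inhibitor, rose by 4.44 ± 0.70 in heart, 5.59 ± 0.76 in kidney (6.00 without it) and 4.38 ± 0.71 in tail on the log2 scale. The copper carrier *Cp* rose by 2.13 ± 0.75, 4.72 ± 0.84 and 7.49 ± 1.00, with 2.196 in kidney without that library, and the metallothionein *Mt1* by 4.25 ± 0.51, 2.71 ± 0.47 (3.10 without it) and 4.48 ± 0.51.

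Inducers and regulators of the acute phase response, all 29 tested, were higher in 11 and lower in 1 in heart, higher in 11 and lower in 2 in kidney, and higher in 16 and lower in none in tail, where 27.7%, 22.6% and 16.5% of all genes passed in either direction. *Il1a*, counted as higher in kidney, had at most 3 counts in every cultured library. It passed the filter on low counts only through transplanted libraries, which tilts the counts and medians upward. Kidney had 13 higher and 1 lower without the library labelled KFs replicate 3. The median log2 fold changes were 0.72, 0.79 (0.63 without that library) and 1.58. They were 0.605, 0.787 and 1.406 with genes near the floor set at their bounds. The interleukin 1 receptor *Il1r1* rose by 2.29 ± 0.27, 2.26 ± 0.27 (2.57 without it) and 1.58 ± 0.26 in heart, kidney and tail. *Nfkb1* passed in tail (1.41 ± 0.14), with 0.53 ± 0.14 in heart and 0.50 ± 0.14 in kidney (0.23 without that library). The cytokine *Il6*, named after its values were seen, had 21.2 CPM in HFc and 16.2 in HFs, 8.29 in KFc and 18.4 in KFs, and 0.292 in TFc and 10.3 in TFs on average, and passed in tail (5.24 ± 0.67) and, without the library labelled KFs replicate 3, in kidney (1.29 ± 0.45).

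Of the receptors and carriers of the secreted members, 9 of 10 were tested. In heart 6 were higher and 1 lower, in kidney 1 was higher, and in tail 3 were higher, with medians of 2.50, -0.23 and 0.22, beside 27.7%, 22.6% and 16.5% of all genes past the threshold. In kidney 1 was higher and 1 lower without the library labelled KFs replicate 3, with a median of -0.36. *Lrp2*, or megalin, which takes up filtered proteins and is also a proximal tubule marker, rose by 3.53 ± 0.75 in heart and 3.08 ± 0.74 in tail and was at -1.24 ± 0.68 in kidney (-1.56 without that library). *Slc22a17*, the lipocalin 2 receptor, rose in heart (2.50 ± 0.26) and was at -0.07 ± 0.24 in kidney (0.15 without it) and 0.21 ± 0.24 in tail. *Scarb1*, a lipoprotein receptor that also binds serum amyloid A, fell in heart (-1.87 ± 0.19), with -0.36 ± 0.18 in kidney (-0.50 without it) and -0.95 ± 0.18 in tail.

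Around the prostaglandin enzymes, 21 of 23 genes were tested. In heart 7 were higher and 1 lower, in kidney 3 higher and 5 lower, and in tail 3 higher and 3 lower, with medians of 0.12, -0.11 and -0.03, beside 27.7%, 22.6% and 16.5% of all genes. Leaving out the library labelled KFs replicate 3 gave 2 higher and 4 lower in kidney and a median of -0.40. *Ptgs1*, the other cyclooxygenase, rose in heart (1.43 ± 0.22) and fell in tail (-1.09 ± 0.21). In kidney it passed as lower (-1.04 ± 0.21), but not without that library (-0.84 ± 0.16). *Pla2g4a*, which releases arachidonic acid, rose in heart (1.50 ± 0.25) and was at -0.11 ± 0.24 in kidney (0.12 without it) and -0.65 ± 0.24 in tail. Prostacyclin synthase, *Ptgis*, fell in heart (-1.24 ± 0.20), with -0.48 ± 0.20 in kidney (-0.27 without it) and -0.90 ± 0.21 in tail.

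Of the nitric oxide and arginine genes, 19 of 21 were tested. Heart had 4 higher and 3 lower, kidney 6 and 4, and tail 6 and 3, with medians of -0.08, -0.21 and -0.13, beside 27.7%, 22.6% and 16.5% of all genes. Without the library labelled KFs replicate 3, 4 were higher and 4 lower in kidney, with a median of -0.27. The arginine transporter *Slc7a2* rose by 3.01 ± 0.31 in heart, 2.30 ± 0.30 in kidney (2.62 without it) and 2.73 ± 0.30 in tail. The transporter *Slc7a1* fell in the same organs (-1.42 ± 0.14, -1.10 ± 0.14 and -1.57 ± 0.14), as did *Ddah1*, which degrades inhibitors of nitric oxide synthase (-1.52 ± 0.15, -1.19 ± 0.15 and -1.36 ± 0.15). Without that library the kidney values were -1.24 for *Slc7a1* and -1.29 for *Ddah1*. Arginase 1, *Arg1*, which competes with *Nos2* for arginine and was named after its values were seen, was at least 45.5-fold higher in HFs (21.6-fold without HFs replicate 3), rose by 8.16 ± 0.88 in kidney (8.32 without the library labelled KFs replicate 3) and was at least 15.9-fold higher in TFs.

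**Figure D5:**
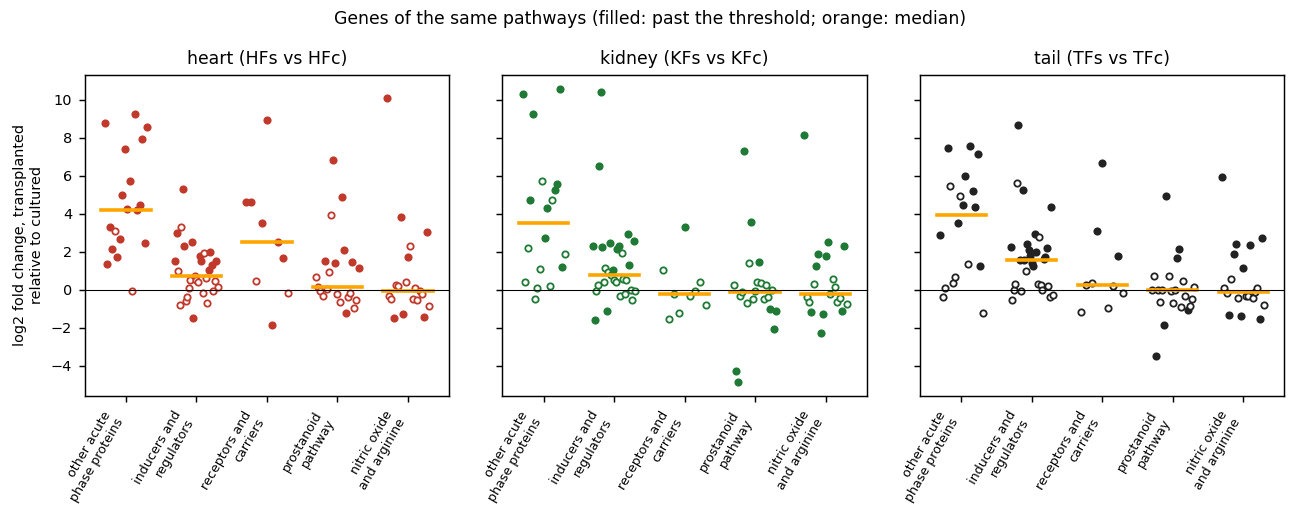
Log2 fold change in transplanted relative to cultured fibroblasts of the tested genes of 5 pathway lists, 1 panel per organ. Each point is 1 gene, filled where it passed the threshold, and orange lines are list medians; other acute phase protein genes have medians of 4.22 in heart, 3.51 in kidney and 3.95 in tail.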

How the data were processed

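The members, pathway lists and marker lists were chosen with earlier results of these data known. The text names all 8 members, the 2 genes most correlated with each tested member, and from each list the 3 genes of highest mean log2 CPM among those past the threshold in a transplant contrast. One gene that this rule names is not reported here.

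RNA of the 18 fibroblast samples was made into stranded total RNA libraries and sequenced as single 75-base reads. The authors trimmed reads at a quality of 30 and estimated expected counts per gene with RSEM and Bowtie2 on GRCm38, counting by strand. The submitters' processing notes name mm9, so the build is not settled, and the annotation release is not given in the sources used here. The deposited expected counts were whole numbers for 38924 Ensembl genes, of which 37607 matched a symbol in GENCODE release 21 (GRCm38). Rows without a symbol held 0.277% of counts and stayed in the fit. Coordinates and lengths are from that annotation. No column belonged to a sample outside the series.

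Counts were fitted in edgeR 4.0.16 (R 4.3.3) with quasi-likelihood F-tests, filterByExpr (16577 genes kept), TMM scaling and 1 mean for each of the 6 groups. SE is the log2 fold change divided by the root of F. The fit was tested on simulated counts. CPM values use TMM-scaled library sizes, and log2 CPM a prior count of 2. Those of *Xist*, the Y-linked genes and the printed floor range use total counts instead. Folds against groups at or under 3 counts per library are bounds against 3 counts on the TMM-scaled sizes. The paper calls the samples biological replicates, but no label ties a library to an animal, so p-values measure the spread between these libraries.

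The alternatives were DESeq2 1.42.0, its size factors, library size alone, no filter on low counts, a mean of at least 10 counts, only the groups compared, the replicate number as a block, each library left out, and *Saa1* and *Saa2* summed. The length of the principal transcript, and correlations without KFs replicate 3, were added after the data were seen. Same-numbered libraries did not deviate together, with mean correlations from -0.09 to 0.024. Promoters were those of RefSeq (GRCm38.p6).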

Additional observations from a re-analysis of the deposited data

Results flagged for a closer look

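In 5 cases the difference between organs in a member's response to transplantation was past the threshold by the interaction term over all genes in edgeR. The list was chosen with these responses known, so the cases are described with no p-value. For *Ptgs2* the log2 fold change in heart exceeded that in tail fibroblasts by 3.17 ± 0.63 (SE), and that in kidney by 2.24 ± 0.62. For *Ptges* heart exceeded tail by 2.78 ± 0.43 and kidney by 3.93 ± 0.44. For *Hp* heart exceeded kidney by 4.43 ± 1.25. Without the library labelled KFs replicate 3 these differences were 3.21, 1.99, 2.81, 3.65 and 4.01, and each remained past the threshold. The *Hp* difference fell short without KFc replicate 3 (3.96).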

How the results depend on the processing

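Of 889 refits of single member fold changes, 836 kept their direction and side of the threshold, 27 fell short of it, 22 newly passed it and 4 changed sign. The sign changes were in differences near 0: *Lcn2* in HFs relative to TFs with 1 library left out (-0.04 without HFs replicate 3, to 0.74), *Ptgs2* there (-0.92 to 0.15 without TFs replicate 1), and *Hp* in KFs relative to TFs (-0.78 to 0.47 without KFs replicate 3 and 0.49 without TFs replicate 1). The cause was not tested.

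With only the groups compared in the fit, the members past the threshold were 4 for KFc relative to TFc, 4 for HFc relative to KFc, 1 for KFs relative to TFs and 1 for HFs relative to KFs. DESeq2 gave 2 for KFc relative to TFc, and DESeq2 and library size alone each gave 1 for the kidney minus tail response. With 1 library left out, the counts ranged from 0 to 1 for KFc relative to TFc (0 without KFc replicate 2 or 3), from 2 to 6 for HFs relative to TFs (6 without KFs replicate 3), and from 0 to 1 for the kidney minus tail response (1 without KFs replicate 2 or 3). Leave-one-out ranges were 7 to 7, 4 to 4 and 6 to 7 for heart, kidney and tail on transplantation. DESeq2 left *Saa3* in KFs relative to TFs (-3.01) and *Saa1* in HFs relative to TFs (-2.91) short of the threshold.

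Same-numbered libraries share only a number. With the replicate number as a block, 2 members passed for HFs relative to TFs in place of 3, since *Saa1* fell short at -2.76. The other 11 member counts stayed the same. With *Saa1* and *Saa2* summed, HFs lay below TFs by -3.27 ± 0.76. List genes past the threshold in any transplant contrast numbered 17, 18, 7, 14 and 11, and 16, 18, 7, 13 and 10 with the block. Per-length levels of 12 of 31 member and group pairs moved by over 1 SD with the principal transcript's length. Depth limits *Saa1*, *Saa2* and the cultured levels of *Saa3* and *Nos2*.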
